A study of Mus musculus with 16 samples.

Results

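Transcripts of the folate, serine and one-carbon pathway were followed over 8 doses of beta-estradiol in the cell line G1E-ER4. The set was 9 genes, found as the rows of the deposited count table that bear the symbols Slc19a1, Phgdh, Psph, Shmt1, Shmt2, Mthfd1, Mthfd1l, Mthfd2 and Tyms, of 23410 symbols in all. Each of the 9 had a row. Of these 8 had enough counts to be tested, and Phgdh was listed at 0 in every library. G1E-ER4 is a mouse erythroid line without its own GATA1 protein in which a fusion of GATA1 with the hormone-binding domain of the estrogen receptor is switched on by beta-estradiol. GATA1 is the main transcription factor of red cell maturation. All groups were this same line grown in IMDM that held fetal serum, murine SCF, erythropoietin, thioglycerate and antibiotics. By their labels they differed in the dose alone, at 0 (labelled control), 12.5, 25, 50, 75, 100, 150 or 200 nM, with 2 libraries a dose and 16 in all. No cells without the fusion protein were among the samples, so effects of beta-estradiol and of GATA1 cannot be told apart, and no exposure time is given. Nothing in the labels says that the 2 libraries of a dose came from separate cultures, so p-values measure the spread between these libraries, which may be technical.

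Folate carries single carbon units between reactions. Cells take up reduced folate, load it with a carbon taken mostly from serine, and spend that carbon on purine rings, on thymidylate for DNA and on methyl groups. The loading runs in parallel in mitochondria and in the cytosol, with formate passing from the mitochondrial arm to the cytosolic arm. Lack of folate is known in people as a cause of anaemia with large, poorly divided red cell precursors.

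Counts per library totalled between 9393156, in replicate 2 at 150 nM, and 15802510, in replicate 2 at 12.5 nM. Of 10 erythroid markers 9 had a row, and their summed level was 30700 and 30200 CPM (counts scaled to a common library size by edgeR's TMM method) at 200 nM, against 2610 and 2520 CPM at 0 nM. Gata1 was among the 9, at 1643 ± 46 CPM at 200 nM and 711 ± 62 CPM at 0 nM (SD, n = 2 each). Whether its reads came from the fusion gene was not tested. Markers of granulocytes and macrophages summed to at most 2.58 CPM in any library, with Mpo, Lyz2 and Ctsg at 0 throughout, and those of mast cells and basophils to at most 1.99 CPM, with Mcpt8 and Prss34 at 0. The 7 megakaryocyte markers summed to 460 and 444 CPM at 200 nM, against 32.2 and 29.2 CPM at 0 nM. Most of the sum at 200 nM was the integrin gene Itgb3, at 404 ± 11 CPM and 7.77 ± 0.64 CPM (SD, n = 2 each) at the same doses. The markers did not move together. Pf4, Itga2b and Gp9 also had higher means at 200 nM. Gp5 was lower, at 5.72 ± 1.03 CPM at 200 nM and 12.3 ± 1.6 CPM at 0 nM (SD, n = 2 each). Gp1ba was at 8.05 ± 0.60 and 7.71 ± 0.33 CPM, and Ppbp at 0 at both doses. The part of these markers in the results that follow was not tested. In bulk RNA, fewer cells of a type and less RNA per cell cannot be told apart.

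Promoter sequence is shown for 3 genes with different responses: Mthfd1, which fell steeply, Tyms, which fell late, and Mthfd2, which did not fall under TMM scaling. Mthfd1 and Tyms are also the only members with a match to the motifs searched. Slc19a1, which fell most, had no match and is not shown. Each run is the 250 bases before the RefSeq transcription start on GRCm38.p6, read 5′ to 3′ on the gene's own strand, and capitals mark the motif letters found.
Mthfd1, chr12:76254982-76255231, plus strand: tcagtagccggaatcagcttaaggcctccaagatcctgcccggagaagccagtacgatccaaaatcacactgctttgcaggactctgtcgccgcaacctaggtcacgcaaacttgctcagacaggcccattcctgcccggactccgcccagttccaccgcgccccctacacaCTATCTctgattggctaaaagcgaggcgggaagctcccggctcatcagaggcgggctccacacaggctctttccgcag
Tyms, chr5:30073626-30073875, minus strand: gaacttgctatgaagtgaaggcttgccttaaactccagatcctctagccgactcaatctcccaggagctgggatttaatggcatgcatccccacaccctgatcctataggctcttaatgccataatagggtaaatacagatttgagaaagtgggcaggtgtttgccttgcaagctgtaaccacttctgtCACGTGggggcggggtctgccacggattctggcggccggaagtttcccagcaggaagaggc
Mthfd2, chr6:83317605-83317854, minus strand: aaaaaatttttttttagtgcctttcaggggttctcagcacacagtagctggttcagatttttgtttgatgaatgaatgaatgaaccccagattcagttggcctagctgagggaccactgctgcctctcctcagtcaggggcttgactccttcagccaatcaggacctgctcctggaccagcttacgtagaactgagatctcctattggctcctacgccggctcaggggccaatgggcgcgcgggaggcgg

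Both strands were searched for 4 GATA-type words. AGATAA stood in 9.99% of all 32851 promoters of this length. TGATAA stood in 7.94%. AGATAG stood in 7.71%. TGATAG stood in 6.35%. The E-box CACGTG and the word TGATGNAA of ATF4-type sites were searched in the same way. The table held 10 promoters for the 9 genes, with Slc19a1 having 2. Mthfd1 alone of them held a GATA-type word, AGATAG read on the opposite strand, whereas 26.5% of all promoters held at least 1 of the 4. Tyms alone held CACGTG, which 6.02% of all promoters held. None of the 10 held TGATGNAA, which stood in 3.45% of all promoters. The GC share was 59.2% for Mthfd1, 52% for Tyms and 52.4% for Mthfd2, against a median of 52.4% over all promoters. The Mthfd1 window lies within an exon of the noncoding gene Gm47525 on the opposite strand. The Mthfd2 window lies inside the GENCODE span of Mthfd2, 83305691 to 83325908, so the outermost GENCODE start lies upstream of the window. GENCODE exons cover 2 bases of the window. Which start these cells use was not tested. These matches describe letters in a window and say nothing of binding.

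At 200 nM against 0 nM, 7 of the 8 tested genes fell and Mthfd2 was the exception. The folate carrier Slc19a1 fell most, followed by the cytosolic enzyme Mthfd1 and the mitochondrial enzyme Mthfd1l. Among the falls, those of the mitochondrial enzyme Shmt2 and of thymidylate synthase Tyms were the smallest. Of all 10080 genes tested 39.5% were called lower and 40.5% higher at this dose, so that a call by itself is common here. The median log2 fold change was -1.91 over the 8 genes and 0.02 over all genes tested. The genes were chosen with earlier results of these data known, so the medians only describe them. Calls are those with a Benjamini-Hochberg adjusted p under 0.05 over all genes in edgeR's quasi-likelihood test, and fold changes are given as log2 ± standard error.

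**Figure D1:**
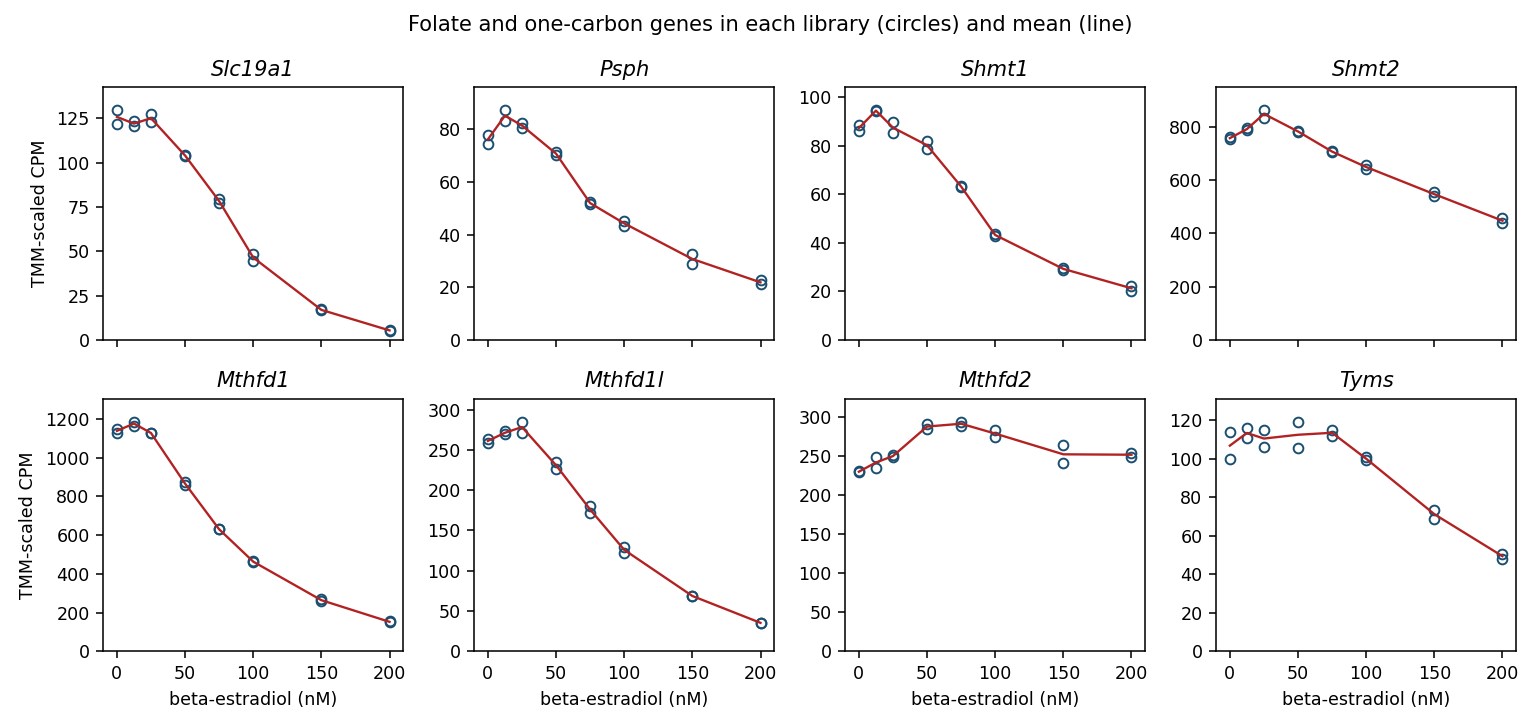
Level of each tested gene against the dose of beta-estradiol in nM, as TMM-scaled CPM on a linear axis that starts at 0. Circles are single libraries, 2 a dose, and the line joins their means. Slc19a1 ends near 5 CPM at 200 nM, and Mthfd2 stays between 229 and 294 CPM in all 16 libraries.

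Slc19a1 encodes the reduced folate carrier of the plasma membrane and lies on chromosome 10, 77032241 to 77061002 on the plus strand (GRCm38, GENCODE M21). It stood at 122 and 129 CPM at 0 nM, 120 and 123 CPM at 12.5 nM, 123 and 127 CPM at 25 nM, 104 and 103 CPM at 50 nM, 77.1 and 79.4 CPM at 75 nM, 44.7 and 48.2 CPM at 100 nM, 17.3 and 16.6 CPM at 150 nM, and 4.98 and 5.85 CPM at 200 nM. The 3 lowest doses overlapped, and from 50 nM up every dose lay wholly below the dose before it. The counts at 200 nM were 54 and 69 reads. Its log2 fold change at 200 nM was -4.53 ± 0.09 (edgeR adjusted p = 1.15e-39), a level 23.1-fold lower than at 0 nM, and 0.655% of all genes tested had a change as low or lower. Steps between doses were 25 nM wide from 25 to 100 nM and 50 nM wide above. The log2 change was -0.27 ± 0.05 from 25 to 50 nM, -0.75 ± 0.06 from 75 to 100 nM, -1.45 ± 0.08 from 100 to 150 nM and -1.65 ± 0.13 from 150 to 200 nM. Per nM these were -0.0106, -0.0301, -0.0289 and -0.033 on the log2 scale.

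The serine synthesis genes are represented by Phgdh and Psph, which encode the enzymes of the first and last steps from the glycolytic intermediate phosphoglycerate. Phgdh (chromosome 3, 98313170 to 98339990, minus strand) was listed at 0 counts in all 16 libraries, as were 37.4% of the symbols in the table, and no fold change is given. GENCODE M21 holds 8 pseudogenes that match its longest transcript at 95% identity or more over at least 500 bases, and together they cover 84.6% of that transcript. Eno1, a glycolytic enzyme gene, had 3 genes that match it in this way, 2 of them pseudogenes, over 85.6% of its transcript. It was listed at 1 to 13 counts. Eno1 and Psat1 were the only genes outside the set that were searched, and Psat1 had no such match. Of the other 8 members Tyms alone had such a copy. How the authors counted reads that match several places is not stated, and the part of the copies in the zeros of Phgdh was not tested.

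Psph (chromosome 5, 129765558 to 129787449, minus strand) fell to 21.1 and 22.7 CPM at 200 nM, against 74.4 and 78.0 CPM at 0 nM. Between them it stood at 87.3 and 83.2 CPM at 12.5 nM, 82.4 and 80.6 CPM at 25 nM, 71.5 and 70.1 CPM at 50 nM, 52.4 and 51.7 CPM at 75 nM, 43.4 and 45.2 CPM at 100 nM, and 29.0 and 32.6 CPM at 150 nM. From 12.5 nM upward no 2 neighbouring doses overlapped, and each lay below the one before. The log2 fold change at 200 nM was -1.80 ± 0.08 (edgeR adjusted p = 3.03e-26). The exons of Psph share 452 bases with Cct6a on the opposite strand, and Cct6a was at 267 ± 7 CPM at 200 nM and 745 ± 2 CPM at 0 nM (SD, n = 2 each), with a log2 fold change of -1.48 ± 0.03. Without strand in the libraries, reads of the shared bases cannot be assigned, so the level of Psph is uncertain. The enzyme between them, Psat1, which is not a member of the set, moved much like Psph, at 262 ± 9 CPM at 200 nM and 910 ± 4 CPM at 0 nM (SD, n = 2 each), with a log2 fold change of -1.80 ± 0.03.

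Shmt1 and Shmt2 encode the cytosolic and the mitochondrial serine hydroxymethyltransferase, which move a carbon from serine to folate and leave glycine. Shmt1 (chromosome 11, 60788104 to 60811718, minus strand) stood at 86.1 and 88.3 CPM at 0 nM, 94.6 and 94.2 CPM at 12.5 nM, 85.2 and 89.6 CPM at 25 nM, 81.9 and 78.4 CPM at 50 nM, 63.1 and 63.3 CPM at 75 nM, 42.8 and 43.6 CPM at 100 nM, 29.6 and 28.9 CPM at 150 nM, and 20.4 and 22.2 CPM at 200 nM. It lay below the 0 nM libraries from 50 nM up, and the log2 fold change of -0.12 ± 0.06 at 50 nM did not pass the test (edgeR adjusted p = 0.0952). At 200 nM its log2 fold change was -2.03 ± 0.07 (edgeR adjusted p = 3.31e-29). A stretch of 184 exon bases is shared with Smcr8 on the opposite strand, whose log2 fold change at 200 nM was 0.79 ± 0.06. Smcr8 was at 98.7 ± 5.3 CPM at 200 nM and 57.2 ± 0.7 CPM at 0 nM (SD, n = 2 each). As with Psph, reads of the shared bases cannot be assigned without strand, so the level of Shmt1 is uncertain.

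Shmt2 (chromosome 10, 127517123 to 127522444, minus strand) stood at 762 and 753 CPM at 0 nM, 794 and 789 CPM at 12.5 nM, 835 and 862 CPM at 25 nM, 780 and 785 CPM at 50 nM, 706 and 708 CPM at 75 nM, 655 and 643 CPM at 100 nM, 540 and 555 CPM at 150 nM, and 457 and 439 CPM at 200 nM. The 25 nM libraries were the highest of the 16. At that dose Shmt2 was the only one of the 8 genes called, and it was higher, by 0.16 ± 0.03 on the log2 scale (edgeR adjusted p = 0.000137). It was higher at 25 nM than at both 0 and 200 nM (edgeR adjusted p = 0.000678 for both conditions together), as were 0.288% of all genes tested. That peak was not called without 0 nM replicate 2 or without 25 nM replicate 2. At 200 nM its log2 fold change was -0.76 ± 0.03 (edgeR adjusted p = 4.53e-27), set beside -2.03 ± 0.07 for Shmt1. Its exons share 32 bases with Ndufa4l2, which was at 1.49 ± 0.29 CPM at 200 nM and 4.44 ± 0.13 CPM at 0 nM (SD, n = 2 each).

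Mthfd1 encodes the cytosolic enzyme that interconverts the carbon-bearing forms of folate and takes up formate, and Mthfd1l encodes the mitochondrial enzyme that releases formate. Mthfd1 (chromosome 12, 76255298 to 76319803, plus strand) stood at 1129 and 1147 CPM at 0 nM, 1165 and 1186 CPM at 12.5 nM, 1129 and 1124 CPM at 25 nM, 874 and 857 CPM at 50 nM, 629 and 631 CPM at 75 nM, 462 and 464 CPM at 100 nM, 259 and 269 CPM at 150 nM, and 154 and 150 CPM at 200 nM. All libraries from 50 nM up lay below those of every lower dose. Its log2 fold change was -0.39 ± 0.03 at 50 nM and -2.90 ± 0.03 at 200 nM (edgeR adjusted p = 3.51e-16 and 1.31e-49).

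Mthfd1l (chromosome 10, 3973118 to 4167081, plus strand) stood at 264 and 259 CPM at 0 nM, 273 and 269 CPM at 12.5 nM, 285 and 272 CPM at 25 nM, 236 and 226 CPM at 50 nM, 172 and 180 CPM at 75 nM, 130 and 122 CPM at 100 nM, 69.1 and 68.3 CPM at 150 nM, and 35.8 and 34.9 CPM at 200 nM. It too lay below every lower dose from 50 nM up. Its log2 fold change was -0.18 ± 0.04 at 50 nM and -2.89 ± 0.05 at 200 nM (edgeR adjusted p = 0.000408 and 3.50e-41). The products of these genes work in different compartments, and their fold changes at 200 nM differed by less than the standard error of either. At lower doses Mthfd1 had fallen further than Mthfd1l. Their log2 fold changes were -0.85 and -0.57 at 75 nM, and -1.30 and -1.05 at 100 nM.

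Mthfd2 encodes the mitochondrial dehydrogenase and cyclohydrolase of the same route (chromosome 6, 83305691 to 83325908, minus strand). Its libraries were at 230 and 229 CPM at 0 nM, 248 and 235 CPM at 12.5 nM, 250 and 249 CPM at 25 nM, 291 and 284 CPM at 50 nM, 288 and 294 CPM at 75 nM, 282 and 274 CPM at 100 nM, 263 and 240 CPM at 150 nM, and 249 and 254 CPM at 200 nM. All other libraries lay above those at 0 nM, and the 6 libraries from 50 to 100 nM were the highest. The log2 fold change against 0 nM was 0.32 ± 0.04 at 50 nM, 0.34 ± 0.04 at 75 nM and 0.28 ± 0.04 at 100 nM (edgeR adjusted p = 2.48e-09, 2.51e-10 and 2.89e-08). Mthfd2 was also higher than at 200 nM at each of these doses (edgeR adjusted p = 0.0017, 0.00032 and 0.0273 for both conditions together), where 1.30%, 1.82% and 1.69% of all genes tested peaked. The peak at 100 nM was not called with DESeq2 or with library size alone, or without any single library at 100 or 200 nM. At 200 nM the log2 fold change was 0.13 ± 0.04 (edgeR adjusted p = 0.00308), and it was not called without 200 nM replicate 2 (0.11, edgeR adjusted p = 0.0525). Scaling by library size alone turned it to -0.25, beside a shift of the median of all genes by -0.36 under that scaling, so the direction of Mthfd2 at 200 nM depends on the scaling. At 150 nM the value of 0.14 ± 0.04 likewise turned to -0.13, and it was not called without 150 nM replicate 1 (0.065, edgeR adjusted p = 0.221).

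Tyms encodes thymidylate synthase, which spends a folate-bound carbon to make the thymine nucleotide of DNA (chromosome 5, 30058202 to 30073617, minus strand). It stood at 114 and 99.8 CPM at 0 nM, 116 and 111 CPM at 12.5 nM, 106 and 115 CPM at 25 nM, 119 and 105 CPM at 50 nM, 115 and 112 CPM at 75 nM, 101 and 99.2 CPM at 100 nM, 73.5 and 68.8 CPM at 150 nM, and 48.0 and 50.7 CPM at 200 nM. The doses from 0 to 100 nM overlapped with the 0 nM libraries, and both top doses lay below all others. Against 0 nM it was first called at 150 nM, with a log2 fold change of -0.58 ± 0.06, and at 200 nM it was -1.11 ± 0.07 (edgeR adjusted p = 1.28e-10 and 8.67e-19). The 0 nM libraries of Tyms were far enough apart to matter below that. Without 0 nM replicate 1 the value at 75 nM was 0.18 and called (edgeR adjusted p = 0.0323), and without 0 nM replicate 2 the value at 100 nM was -0.19 and called (edgeR adjusted p = 0.0169). The pseudogene Tyms-ps, which matches 17.3% of the longest Tyms transcript, had at most 8 counts in any library.

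Across the doses the calls accumulated unevenly. At 12.5 nM none of the 8 genes was called in edgeR, beside 0.278% of all genes higher and 0.228% lower. At that dose 3 of the 8, and 8.37% of all genes tested, had an unadjusted p under 0.05, and DESeq2 called 0 of the 8. At 25 nM Shmt2 alone was called, where 4.02% of all genes were called in either direction. At 50 nM Slc19a1, Mthfd1 and Mthfd1l were lower and Mthfd2 higher, beside 14.7% of all genes lower and 18.8% higher. At 75 nM Psph, Shmt1 and Shmt2 joined those lower, which made 6 lower and 1 higher, beside 26.9% of all genes lower and 29.0% higher. The counts were the same at 100 nM, beside 32.5% of all genes lower and 34.1% higher. With Tyms the count lower was 7 at 150 nM, beside 36.6% of all genes lower and 37.7% higher. An F test over all doses called each of the 8 genes, as it did 86.3% of all genes tested.

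**Figure D2:**
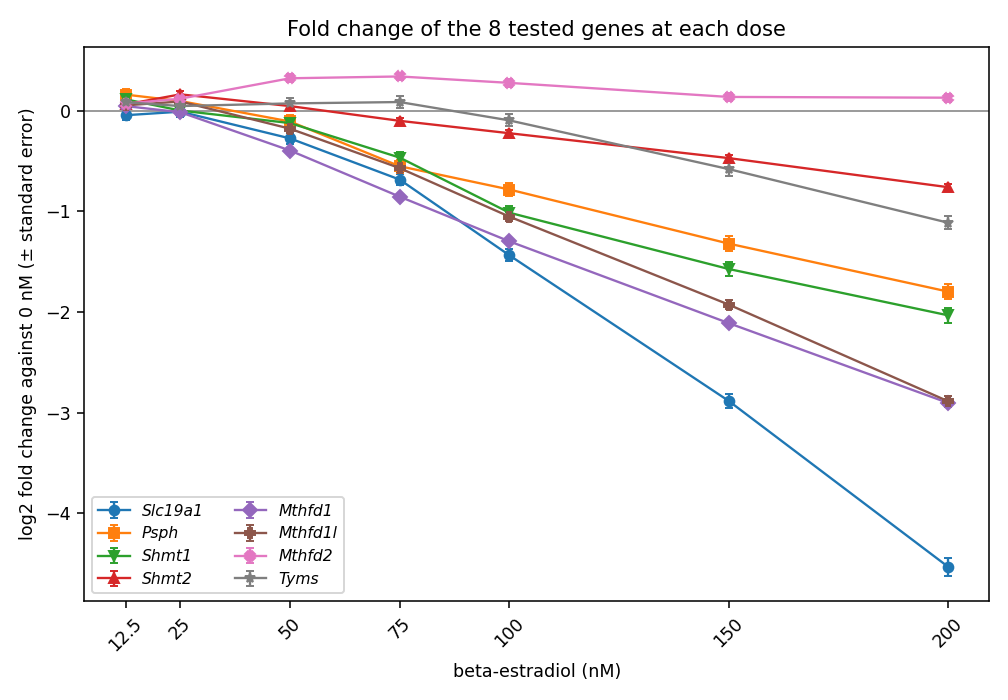
Log2 fold change of each tested gene against 0 nM (vertical axis) at the 7 doses of beta-estradiol in nM (horizontal axis), with bars of ± 1 standard error from the edgeR fit to all 16 libraries. Slc19a1 reaches -4.53 at 200 nM, the paths of Mthfd1 and Mthfd1l meet at -2.90 and -2.89, and Mthfd2 stays above 0.

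Between neighbouring doses, 5 of the 8 genes fell from 25 to 50 nM (Slc19a1, Psph, Shmt2, Mthfd1 and Mthfd1l) while Mthfd2 rose, where 12.1% of all genes fell and 14.1% rose. The call of Psph was lost without 25 nM replicate 1 or 50 nM replicate 2 (edgeR adjusted p = 0.0784 and 0.0669), and that of Shmt2 without 25 nM replicate 2 (edgeR adjusted p = 0.0535). From 50 to 75 nM 6 fell, where 15.8% of all genes did. From 75 to 100 nM 7 fell, where 12.8% of all genes did, and 5 to 6 fell when any single library of those doses was left out. Tyms lost its call without each of these 4 libraries, and Psph without replicate 1 of either dose. All 8 fell from 100 to 150 nM, Mthfd2 among them by 0.14 ± 0.04 on the log2 scale (edgeR adjusted p = 0.00403), where 20.2% of all genes fell. Mthfd2 lost that call without 100 nM replicate 1 or 150 nM replicate 2 (-0.12 and -0.084, edgeR adjusted p = 0.057 and 0.142). From 150 to 200 nM 7 fell and Mthfd2 did not pass the test, where 19.9% of all genes fell.

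The dose at the midpoint of each log2 change was read for the 6 genes that fell at least 2-fold at 200 nM. It was 98.9 nM for Shmt1, 107 nM for Psph, 109 nM for Mthfd1, 121 nM for Mthfd1l, 128 nM for Slc19a1 and 144 nM for Tyms. Series built from 1 library a dose, 256 in number, gave 96.7 to 102 nM for Shmt1, 100 to 115 nM for Psph, 107 to 110 nM for Mthfd1, 118 to 124 nM for Mthfd1l, 124 to 132 nM for Slc19a1 and 135 to 153 nM for Tyms. The ranges of Psph and Mthfd1 overlapped, as did that of Psph with that of Shmt1, and those of Mthfd1l and Slc19a1 touched, while that of Tyms lay above the rest. Over the 1750 genes that were called and fell at least 2-fold, the median was 106 nM and the middle part from the lower to the upper quartile ran from 84.4 to 122 nM. On the linear CPM scale the midpoints were lower, at 72.4 nM for Mthfd1, 85 nM for Slc19a1 and 134 nM for Tyms. The order of the genes changed as well. Shmt1 had a mean of 63.2 CPM at 75 nM, against 87.2 CPM at 0 nM and 21.3 CPM at 200 nM. Its CPM midpoint therefore lay above 75 nM and that of Mthfd1 below, the reverse of their log2 order.

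Because the genes fell by different amounts, their order changed. Per kilobase of exon, the levels at 200 nM ran from Shmt2 (144 ± 4 CPM per kb) and Mthfd2 (72.1 ± 1.0) through Mthfd1 (34.3 ± 0.6), Tyms (8.10 ± 0.31) and Mthfd1l (7.97 ± 0.13) to Shmt1 (5.48 ± 0.33), Psph (5.06 ± 0.26) and Slc19a1 (1.17 ± 0.13) (SD, n = 2 each). At this dose Tyms and Mthfd1l overlapped, as did Shmt1 and Psph, and the other neighbours did not. At 0 nM the same levels ran from Mthfd1 (256 ± 3 CPM per kb) and Shmt2 (244 ± 2) through Mthfd2 (65.9 ± 0.1), Mthfd1l (58.9 ± 0.8), Slc19a1 (27.1 ± 1.1) and Shmt1 (22.5 ± 0.4) to Psph (17.6 ± 0.6) and Tyms (17.5 ± 1.6) (SD, n = 2 each). Here Psph and Tyms overlapped. Exon length was the union of all GENCODE exons of a gene, which can exceed the transcript in use.

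Ratios within a library do not depend on how libraries are scaled. Mthfd2 over Mthfd1, in counts per kb, was 2.06 and 2.15 at 200 nM, against 0.260 and 0.255 at 0 nM. The 12.5 nM libraries had ratios of 0.271 and 0.252, those of 25 nM 0.282 in both, those of 50 nM 0.424 and 0.422, those of 75 nM 0.584 and 0.593, those of 100 nM 0.779 and 0.753, and those of 150 nM 1.30 and 1.14. From 25 nM up each dose lay above all lower ones. Mthfd2 over Mthfd1l was 8.85 and 9.25 at 200 nM, against 1.11 and 1.13 at 0 nM.

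The level of Shmt1 is uncertain because of the exon bases shared with Smcr8, and so are ratios that use it. Shmt2 over Shmt1, the mitochondrial over the cytosolic enzyme, was 28.0 and 24.7 at 200 nM, against 11.1 and 10.7 at 0 nM. It lay between 10.5 and 12.5 in the libraries from 12.5 to 50 nM and was 14.0 in both of the 75 nM libraries. Those of 100 nM had ratios of 19.1 and 18.4, and those of 150 nM had 22.8 and 24.0. Mthfd1l over Mthfd1 was 0.233 in both libraries at 200 nM, against 0.234 and 0.226 at 0 nM, and reached 0.274 and 0.286 at 75 nM. An exact permutation test of 2 against 2 libraries cannot give a two-sided p below 0.333, so these ratios are given as values.

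**Figure D3:**
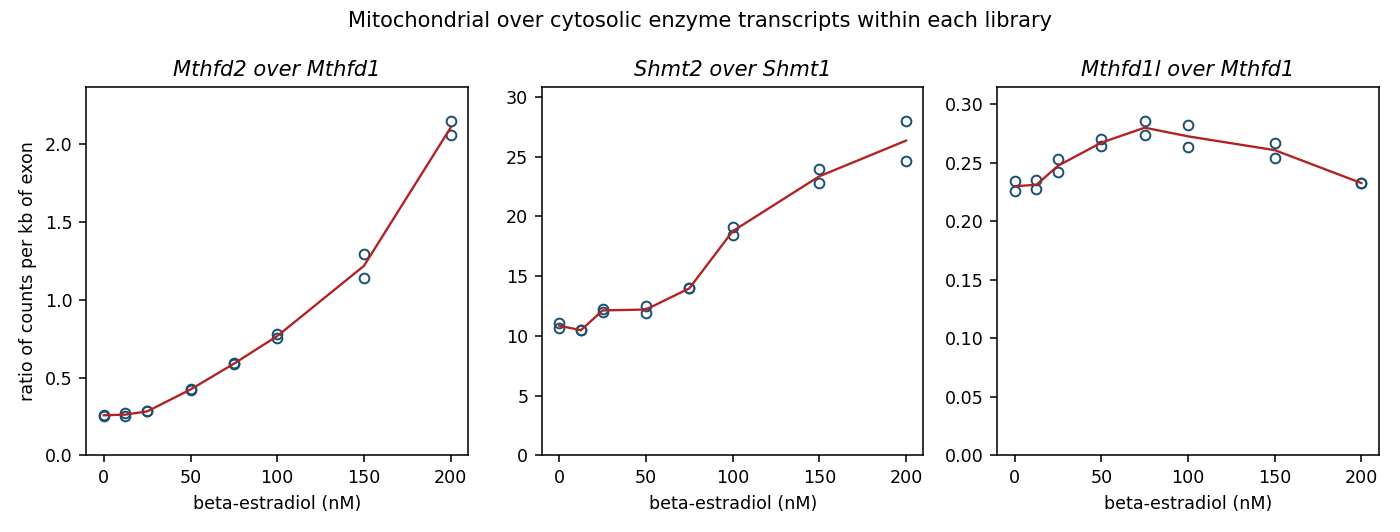
Ratio of counts per kilobase of exon within each library (vertical axes, linear, from 0) against the dose of beta-estradiol in nM, for Mthfd2 over Mthfd1, Shmt2 over Shmt1 and Mthfd1l over Mthfd1. Circles are libraries and lines join the means of 2. The first ratio ends at 2.06 and 2.15, the second at 28.0 and 24.7, and the third returns to 0.233 at 200 nM.

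Beyond the 9 genes, a list of 39 others of the pathway was examined, of which 25 had enough counts. At 200 nM against 0 nM 19 of them fell, 4 rose and 2 did not pass (edgeR quasi-likelihood, adjusted p under 0.05), beside 39.5% lower and 40.5% higher over all genes tested. They had a median log2 fold change of -1.16 where that of all genes tested was 0.02. This list too was chosen with earlier results of these data known, so the median only describes it. Adjusted p-values of the genes named here as fallen or risen ran up to 0.0267. The untested 14, among them the folate receptors Folr1 and Folr2, the proton-coupled folate transporter Slc46a1 and the glycine decarboxylase Gldc, had at most 7 counts in any library.

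Of folate transport and storage, both tested genes fell. Fpgs, which adds the glutamate tail that keeps folate in the cell, had 5.71 and 5.68 CPM at 200 nM, against 91.7 and 95.6 CPM at 0 nM, a log2 fold change of -4.04 ± 0.10. Slc25a32, the mitochondrial folate carrier, changed by -2.19 ± 0.09. Of the folate cycle, Mtfmt, which formylates the mitochondrial initiator tRNA, fell by 0.44 ± 0.14 on the log2 scale, while Mthfs was at 0.12 ± 0.25 and Mthfd2l, a relative of Mthfd2 with at most 18 counts in a library, at -1.33 ± 0.63, and neither passed (edgeR adjusted p = 0.672 and 0.0501). Mthfd2l was called with library size alone (-1.70, edgeR adjusted p = 0.0117), with DESeq2 size factors in edgeR and with a filter of 1 CPM in 2 libraries (-1.34 and -1.33, edgeR adjusted p = 0.0487 and 0.0495), and without 0 nM replicate 2 or 200 nM replicate 2 (-1.64 and -2.25, edgeR adjusted p = 0.0326 and 0.034).

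The genes that use folate-bound carbon for purine rings both fell, Gart by 2.76 ± 0.04 and Atic by 1.95 ± 0.05 on the log2 scale. Gart had 106 ± 4 CPM at 200 nM and 721 ± 8 CPM at 0 nM (SD, n = 2 each). All 4 genes of thymidylate supply fell. The deaminase gene Dctd changed by -4.94 ± 0.19, Dut, whose enzyme makes the substrate of thymidylate synthase, by -1.88 ± 0.04, and the kinase gene Dtymk by -1.15 ± 0.04. The thymidine kinase gene Tk1 had 67.9 ± 2.4 CPM at 200 nM and 135 ± 1 CPM at 0 nM (SD, n = 2 each). Of glycine cleavage, Gcsh fell by 2.74 ± 0.08 and Dld, shared with other dehydrogenase complexes, by 0.97 ± 0.04 on the log2 scale.

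**Figure D4:**
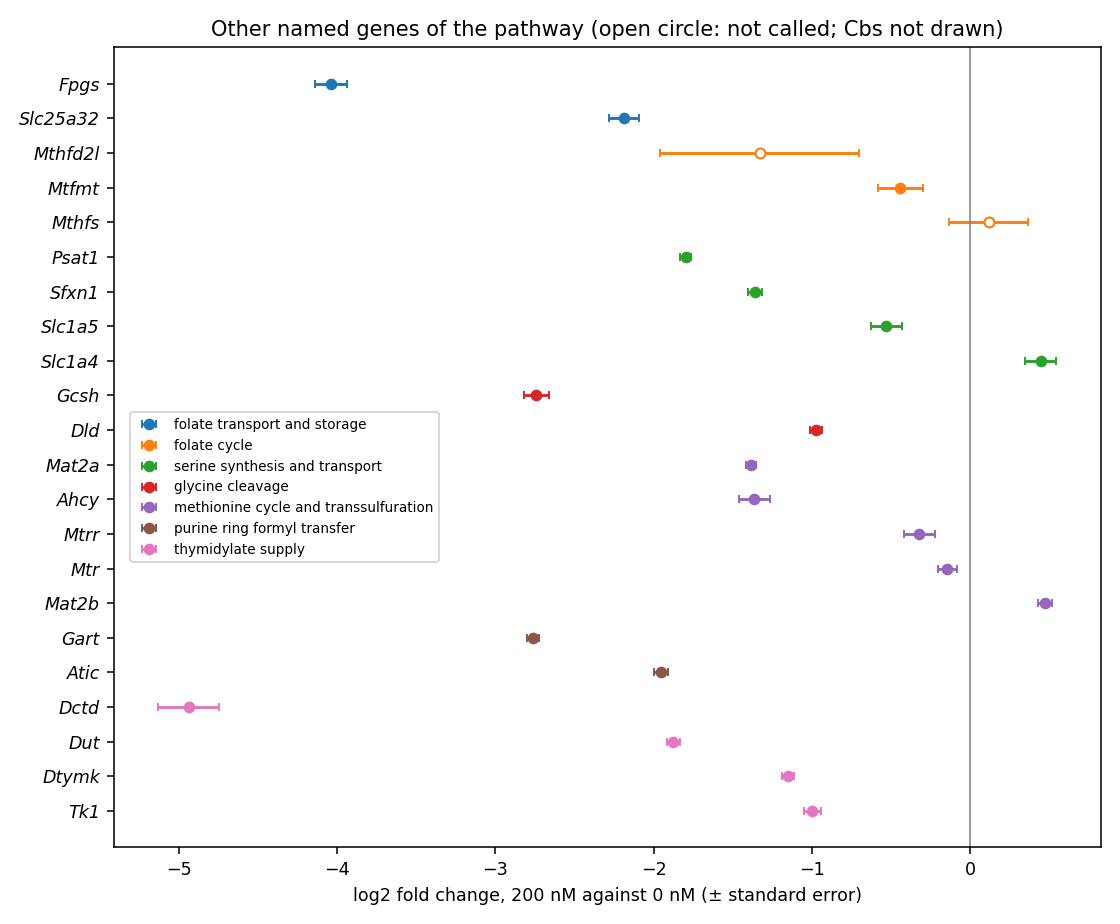
Log2 fold change at 200 nM against 0 nM (horizontal axis) for other tested genes of the pathway that are named here, grouped by role and coloured by it, with bars of ± 1 standard error. Open circles did not pass the test. Fpgs (-4.04) and Dctd (-4.94) lie farthest left and Mat2b (0.47) farthest right of those drawn, and Cbs is not drawn because it had 0 counts at 0 nM.

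Serine transport and the methionine cycle were mixed. Besides Psat1, the mitochondrial serine carrier Sfxn1 fell by 1.36 ± 0.05 and the amino acid exchanger Slc1a5 by 0.53 ± 0.10 on the log2 scale, while the exchanger Slc1a4 rose by 0.44 ± 0.10. Slc1a4 was higher at 150 nM than at both 0 and 200 nM (edgeR adjusted p = 0.00041 for both conditions together). The log2 differences were 0.98 and 0.54. With library size alone Slc1a4 was at 0.063 at 200 nM and not called (edgeR adjusted p = 0.555). Mat2a and Ahcy, of the synthesis and recycling of S-adenosylmethionine, fell by 1.39 ± 0.03 and 1.37 ± 0.10. Mtr, the methionine synthase that takes its carbon from folate, changed by -0.14 ± 0.06 and its reductase Mtrr by -0.32 ± 0.10. The call of Mtr was lost with DESeq2 (-0.15, adjusted p = 0.0506) and without 0 nM replicate 1 (-0.13, edgeR adjusted p = 0.0985) or 200 nM replicate 1 (-0.070, edgeR adjusted p = 0.374). That of Mtrr was lost without 200 nM replicate 1 (-0.24, edgeR adjusted p = 0.0731). Mat2b, the regulatory partner of Mat2a, rose by 0.47 ± 0.04. Cbs, which diverts homocysteine to cysteine, had 31 and 30 counts at 200 nM and 0 in both libraries at 0 nM. Taking 3 counts for the 0 nM libraries together as the floor, it was at least 28.9-fold higher.

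Myc and Atf4 encode transcription factors known to act on genes of this pathway. Myc was at 93.8 ± 4.4 CPM at 200 nM and 392 ± 4 CPM at 0 nM (SD, n = 2 each), a log2 fold change of -2.06 ± 0.04 (edgeR adjusted p = 8.46e-40). Myc was first called lower at 50 nM, at -0.41 ± 0.04, where 14.7% of all genes tested were called lower. Slc19a1, Mthfd1 and Mthfd1l were first called at that dose as well. Psph, Shmt1 and Shmt2 were first called lower at 75 nM, and Tyms at 150 nM. The part of Myc in these falls was not tested. Atf4 was at 91.9 ± 0.1 CPM at 200 nM and 109 ± 1 CPM at 0 nM (SD, n = 2 each), a log2 fold change of -0.24 ± 0.05 (edgeR adjusted p = 5.57e-05), and at 50 nM it was higher by 0.14 ± 0.05 (edgeR adjusted p = 0.0233). Transcript levels do not measure the activity of either factor.

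Likeness of dose response was measured as the root mean square difference in log2 fold change over the 7 doses, among 6555 other named genes whose mean reached 20 CPM at 1 dose or more. The pairs among the members themselves that lay closest were Psph with Shmt1 (0.165), Shmt2 with Tyms (0.170) and Mthfd1 with Mthfd1l (0.183). Outside the set, Psph lay closest to Wdr3 (0.0533) and to Psat1 (0.0576). Tyms lay closest to Wdhd1 (0.032) and Pcna (0.052), and Slc19a1 to Ppargc1b (0.147) and Dctd (0.183). The closest were Tma16 (0.0662) and Lap3 (0.0724) for Shmt1, and Psmd3 (0.025) and Chchd1 (0.0409) for Shmt2. For Mthfd1 they were Set (0.0674) and Gng10 (0.0692), for Mthfd1l Tcof1 (0.0603) and Lyar (0.0792), and for Mthfd2 Psmc6 (0.0363) and Parg (0.047). All comparisons with 0 nM share the same 2 control libraries, so these distances share their error.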

How the data were processed

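RNA of 16 libraries was prepared with Smart-seq2, per the labels' protocols, which keeps no strand and uses no molecular identifiers. The values are unnormalized counts, 1 row a gene symbol, as deposited by the authors. bcl2fastq, STAR and the build mm10 are named by the submitters' processing notes, while no source used here names the counting program, its annotation or its rule for reads that match several places. From these counts, edgeR 4.0.16 in R 4.3.3 was run with filterByExpr (10080 genes kept), TMM scaling and a robust quasi-likelihood fit to all libraries with dose as a factor. Benjamini-Hochberg adjustment ran over all genes of a contrast, with calls under 0.05, and a peak had to pass against both 0 and 200 nM by the larger of its 2 p-values, adjusted over all genes. Standard errors are the size of the log2 fold change divided by the square root of F. Midpoint doses were interpolated on log2 CPM averaged by dose (prior count 2) and made monotone. Alternatives were DESeq2 1.42.0, its size factors in edgeR, library size alone, other filters, the replicate block and leaving out each library. The fit was tested on simulated data. TMM factors were 0.846 and 0.843 at 200 nM, against 1.10 in both libraries at 0 nM, while Rn45s, the ribosomal RNA precursor, held 14.6% and 15.3% of counts at 200 nM, against 9.61% and 9.53% at 0 nM. Named genes were all members, the tested genes of the pathway and regulator lists, and the 2 most alike genes of each member. The members and lists were chosen with earlier results of these data known. Amplified reads are not independent molecules, so precision set by depth covers counting error at most. Promoters are from RefSeq on GRCm38.p6 and positions from GENCODE M21 on GRCm38. All 9 members matched a promoter. Some genes of the pathway list enter its counts and median but are not reported here by name.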

Additional observations from a re-analysis of the deposited data

How the results depend on the processing

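Calls of the 8 genes against 0 nM, 56 in all, kept direction and side of the threshold with DESeq2, with its size factors in edgeR, with both other filters and with the replicate block. Under the block 7 genes were lower at 200 nM, as without it. Deviations of same-numbered libraries correlated at -0.103 to 0.114 over 28 pairs of doses. No strong pairing by replicate number was seen, and a weak one cannot be told from none in this way. Library size alone gave 5 members lower at 50 nM, with Psph (-0.18) and Shmt1 (-0.19) added, 0 higher at 150 nM and 0 higher at 200 nM. It called Tyms lower at 100 nM (-0.28) and moved the midpoint of Tyms to 139 nM from 144 nM and the median midpoint to 114 nM from 115 nM. It turned Mthfd2 to -0.13 at 150 nM and -0.25 at 200 nM, Shmt1 to -0.044 at 25 nM, Shmt2 to -0.024 at 50 nM, Tyms to -0.033 at 75 nM and Mthfs to -0.26 at 200 nM, none of the last 4 called. Interpolation on CPM moved the median midpoint to 84.5 nM. Leaving out each library gave 1 to 2 members higher at 75 nM, 0 to 1 at 150 nM, 0 to 1 at 200 nM, and 1 to 2 members with a peak. It also turned uncalled values: Slc19a1 ran from -0.085 to 0.0017 at 12.5 nM and from -0.050 to 0.037 at 25 nM, Shmt1 from -0.029 to 0.041 at 25 nM, Mthfs from -0.13 to 0.30 at 200 nM, and Tyms from -0.0019 to 0.18 at 12.5 nM, -0.040 to 0.15 at 25 nM, -0.018 to 0.17 at 50 nM and -0.0061 to 0.18 at 75 nM. The cause was not tested. With 2 libraries a dose, small changes at 12.5 and 25 nM may not be detectable.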
